A study of Brachypodium distachyon with 12 samples.

Results

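The secondary wall cellulose synthases of Brachypodium distachyon are encoded by CESA4 (Bradi3g28350), CESA7 (Bradi4g30540) and CESA8 (Bradi2g49912). These 3 genes were taken by their gene identifiers, from 34310 transcripts listed, by a rule that holds no measured value. Earlier results of these data were known when they were chosen. Each gene is listed with 1 transcript, Bradi3g28350.1 of 3540 bases, Bradi4g30540.1 of 3680 bases and Bradi2g49912.1 of 3768 bases. Cellulose synthases are membrane enzymes that extrude the glucan chains of cellulose from complexes in the plasma membrane. In Arabidopsis, the secondary wall complex needs its different CESA subunits together, loss of any of them gives collapsed xylem vessels (the irregular xylem phenotype), and a separate set of CESA proteins makes the primary wall. Transcripts of the secondary wall set are used in plants as markers of cells that thicken their wall after they stop expanding, such as xylem vessels and fibres.

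RNA was taken by laser capture microdissection, which cuts chosen cells out of a tissue section, from the shoot apex of wild-type Bd21-3 plants that the labels give as 19 days old. The 12 RNA-seq libraries fall into 4 groups of 3, none of them treated: vascular bundles (VBs) of type 1, in which no protoxylem cell was visible, of type 2, with 1 to 2 protoxylem cells, of type 3, with 3 to 4, and parenchyma, which the labels call control. Protoxylem is the first xylem to form, and its vessels carry a secondary wall. Each library was made from 500 pg of RNA of captured tissue from one or a few plants. A VB library holds all cell types of the bundle, and in it fewer cells of a type cannot be told apart from less RNA per cell.

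Between 12888132 and 27218311 read pairs were counted per library. One transcript, Bradi2g12067.1, took 86.3% of the pairs of parenchyma replicate 3, against 15.1% to 54.2% in the other libraries, which left 1768043 pairs on all other transcripts there and 9080187 to 23109703 elsewhere. Levels are given as normalized CPM, that is, pair counts scaled to a common library total after TMM. A floor of 3 pairs, the limit that a count of 0 allows, was worth 0.116 to 0.165 CPM in the VB libraries, and 0.0737, 0.101 and 1.32 CPM in replicates 1, 2 and 3 of parenchyma. XCP1, a cysteine protease of xylem vessels in Arabidopsis, was called higher in VBs, as were PXY, TMO6 and PIN1a, which are vascular genes in Arabidopsis. Over all transcripts tested, 1.25% were called higher. The study had named these genes as higher in VBs from the same libraries, so the calls are no independent check of the dissection. XCP1 was higher in all 9 VB libraries than in any parenchyma library, and its pairs were also counted in all 3 parenchyma libraries.

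CESA4, CESA7 and CESA8 transcripts were present in VBs. In parenchyma, CESA4 and CESA7 stayed at or below the floor in all 3 libraries and CESA8 in all but 1. Summed over libraries, the 9 VB libraries held 1256 pairs of CESA4, 812 of CESA7 and 1583 of CESA8, and the 3 parenchyma libraries held 2, 6 and 40. Relative to library totals scaled by TMM, this was 224-fold more CESA4 in VBs (95% exact interval 62.0 to 1855), 48.4-fold more CESA7 (22.1 to 132) and 14.1-fold more CESA8 (10.3 to 19.9). These intervals treat the pooled read pairs as independent and leave out the spread between libraries. Reads copied by PCR are not independent molecules, so the intervals may be too narrow even for counting error. Without parenchyma replicate 3 the ratios were 217, 56.2 and 14.4. The CESA8 ratio depended on the other parenchyma libraries, and was 6.56 (4.76 to 9.31) without replicate 1 and 83.5 (32.6 to 307) without replicate 2, which held 36 of the 40 pairs. For CESA4 and CESA7 the ratios were 198 and 42.6 without replicate 1 and 265 and 42.8 without replicate 2.

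**Figure D1:**
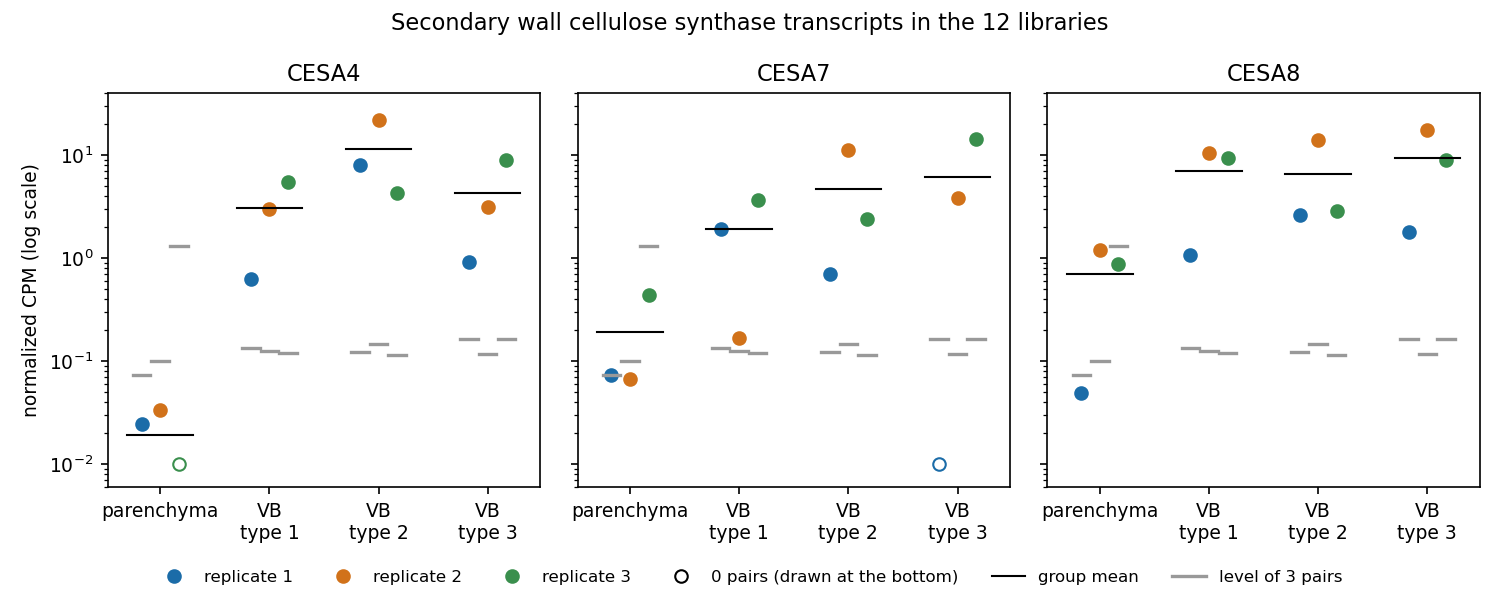
Normalized CPM (log axis) of CESA4, CESA7 and CESA8 in the 12 libraries, grouped by tissue, with colours for replicate numbers, black lines for group means and grey lines for the level that 3 pairs are worth in each library. CESA4 lay between 0.630 and 22.3 CPM in the 9 VB libraries and was counted at 0, 0.0246 and 0.0335 CPM in parenchyma, where the 0 allows up to 1.32 CPM, whereas VB libraries with low CESA7 or CESA8 overlapped with parenchyma.

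CESA4 was the member with the fewest pairs in parenchyma. It was counted at 0.630, 3.04 and 5.59 CPM in replicates 1 to 3 of VB type 1, at 8.14, 22.3 and 4.34 CPM in VB type 2 and at 0.927, 3.19 and 8.99 CPM in VB type 3. In parenchyma, replicates 1 and 2 held 1 pair each, or 0.0246 and 0.0335 CPM, and replicate 3 held 0 pairs. All 9 VB libraries were above parenchyma replicates 1 and 2, and the lowest of them held 14 pairs. The 0 pairs of parenchyma replicate 3 allow up to 1.32 CPM, which is more than replicate 1 of VB types 1 and 3 held, so these were not shown to differ from it. The VB mean was 6.35 ± 6.64 CPM (SD, n = 9), and that of parenchyma was 0.0194 ± 0.0174 CPM (SD, n = 3). CESA4 was called higher in VBs with a log2 fold change of 7.40 (SE 1.52, adjusted p = 0.0119 by edgeR's quasi-likelihood test, adjusted after Benjamini and Hochberg). The fitted fold depends on the prior count, because no parenchyma library exceeded 1 pair. In this comparison 5.02% of the 16706 transcripts tested were called, 1.25% higher and 3.78% lower, and CESA4 was the one called member of 3. It was tested only because 7 of 12 libraries reached 1 CPM before TMM scaling, all of them VB libraries, where it is high. Without that filter its log2 fold change was 7.38 (adjusted p = 0.00901 by the same test). With library totals in place of TMM, 68 transcripts were called higher and 77 lower, against 208 and 631, and CESA4 remained called. The call was lost in limma-voom with quality weights (adjusted p = 0.157) and without parenchyma replicate 1 or 2, with adjusted p of 0.0511 and 0.0535 and log2 fold changes of 7.27 and 7.62. An exact permutation test over the libraries, two-sided, gave p = 0.00909, which is the smallest that 9 against 3 allows. It takes the 0 pairs of parenchyma replicate 3 at face value, although they allow up to 1.32 CPM. The permutation p-values of the 3 members were not adjusted.

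Over the 9 VB libraries, CESA7 had the lowest mean level of the 3 per unit of length and the highest coefficient of variation. It was counted at 1.94, 0.169 and 3.66 CPM in VB type 1, at 0.699, 11.2 and 2.44 CPM in VB type 2 and at 0, 3.89 and 14.6 CPM in VB type 3. Parenchyma held 0.0737, 0.0671 and 0.441 CPM, or 3, 2 and 1 pairs. VB type 3 replicate 1 held 0 pairs, which allows a level of up to 0.164 CPM, although the same library held 17 pairs of CESA4 and 33 of CESA8. That library and VB type 1 replicate 2, where 4 pairs were counted, did not exceed the highest parenchyma value, which rested on 1 pair, and the other 7 VB libraries did. The VB mean was 4.28 ± 5.13 CPM (SD, n = 9), and that of parenchyma was 0.194 ± 0.214 CPM (SD, n = 3). The log2 fold change was 4.92 (SE 2.05), and with an adjusted p of 0.208 in edgeR's quasi-likelihood test CESA7 was not called. DESeq2 called it (adjusted p = 0.00934). The exact permutation test gave p = 0.0909.

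CESA8 was the member with the highest mean level per unit of length in VBs and the only one that rose above the floor in a parenchyma library. It was counted at 1.08, 10.5 and 9.41 CPM in VB type 1, at 2.63, 14.2 and 2.90 CPM in VB type 2 and at 1.80, 17.5 and 8.99 CPM in VB type 3. In parenchyma it stood at 0.0491 CPM in replicate 1, at 1.21 CPM in replicate 2, from 36 pairs, and at 0.881 CPM in replicate 3, from 2 pairs. By these values, the VB libraries overlapped with parenchyma in 1 of 9 cases, VB type 1 replicate 1. The 2 pairs of parenchyma replicate 3 lie below its floor of 1.32 CPM and leave its level uncertain. VB libraries with low CESA8 were therefore not shown to differ from it. The VB mean was 7.66 ± 5.89 CPM (SD, n = 9), that of parenchyma was 0.713 ± 0.597 CPM (SD, n = 3), and the log2 fold change of 3.45 (SE 1.29) had an adjusted p of 0.154 in edgeR's quasi-likelihood test, whereas DESeq2 called it (adjusted p = 0.0108). The log2 fold change was 2.81 without parenchyma replicate 1 and 4.69 without replicate 2, and neither was called. The exact permutation test over the 12 libraries gave p = 0.0182. Parenchyma replicate 2, which held most of the parenchyma pairs of CESA8, also had the highest parenchyma level of XCP1, with 18.1 CPM against 1.33 and 10.6 CPM in replicates 1 and 3. Whether vascular RNA in that library had a part in its CESA8 count was not tested, and CESA4 and CESA7 stood there at 1 and 2 pairs.

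Among the 16706 transcripts tested, the log2 fold changes of CESA4, CESA7 and CESA8 ranked 105, 245 and 448 from the highest. Their median was 4.92, beside a median of 0.01 over all transcripts. CESA4 and CESA7 each passed the filter in 7 of 12 libraries, all of them VB libraries. A transcript near 0 in parenchyma is tested only if it is high in VBs, so their ranks and this median partly follow from the filter. The levels themselves were low. Scaled by transcript length, the mean over the 9 VB libraries was 1.79 CPM per kb for CESA4, 1.16 for CESA7 and 2.03 for CESA8, and only 16.4%, 8.60% and 19.2% of the transcripts tested had a lower one. Of the single reads on these transcripts, 74.6%, 79.6% and 81.2% were part of a counted pair, against 89.3% over all transcripts.

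Each VB type was also compared with parenchyma on its own. VBs without visible protoxylem held 225 pairs of CESA4, 138 of CESA7 and 507 of CESA8. Relative to parenchyma, the pooled rate in VB type 1 was 116-fold for CESA4 (95% exact interval 31.7 to 961), 23.7-fold for CESA7 (10.6 to 65.6) and 13.0-fold for CESA8 (9.44 to 18.5). These intervals, too, leave out the spread between libraries. In fits of 6 libraries, a transcript was tested if 3 or more of them reached 1 CPM before TMM scaling. In VB type 1 and in VB type 3, CESA4 and CESA7 reached that level in 2 libraries and were not tested. In VB type 2 they reached it in 3 libraries, all of them VB libraries, so they were tested only because they are high there. CESA7 reached it in VB type 2 replicate 1 with 1.01 CPM before scaling. In fits without that filter, CESA4 had log2 fold changes of 6.67 (SE 2.28) in VB type 1 and 7.11 (SE 2.60) in VB type 3, with adjusted p of 0.285 and 0.199, and CESA7 had 3.77 (SE 2.30) and 5.52 (SE 2.28), with adjusted p of 0.511 and 0.301. CESA8 was tested in all 3 comparisons, with log2 fold changes of 3.34 (SE 1.50), 3.23 (SE 1.61) and 3.77 (SE 1.51) in VB types 1, 2 and 3 and adjusted p of 0.469, 0.585 and 0.332. In VB type 2, CESA4 had a log2 fold change of 8.53 (SE 1.58, adjusted p = 0.0666 by edgeR's quasi-likelihood test), rank 83 by p-value among 16733 transcripts of which 0.12% were called (0.0299% higher and 0.0896% lower), and CESA7 one of 5.13 (SE 1.95, adjusted p = 0.382). The quasi-likelihood test called 0 of 17078 transcripts in VB type 1, where 1869 had an unadjusted p under 0.05 and the likelihood ratio test and DESeq2 called 653 and 806, and it called 0.883% in VB type 3 (0.14% higher and 0.743% lower).

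One fit of all 12 libraries held the 3 members in each comparison. There, CESA4 was called higher in VB type 2 (log2 fold change 8.50, SE 1.63, adjusted p = 0.0214 by edgeR's quasi-likelihood test) and in VB type 3 (7.09, SE 1.56, adjusted p = 0.0378), with 1.86% and 1.72% of all transcripts called. In VB type 1 it had a log2 fold change of 6.59 (SE 1.54) and an adjusted p of 0.0564, with 1.14% of transcripts called. CESA7 had log2 fold changes of 3.92, 5.23 and 5.60 in VB types 1, 2 and 3, with adjusted p of 0.246 to 0.492, and CESA8 had 3.34, 3.24 and 3.77, with adjusted p of 0.215 to 0.323. The 3 VB types were compared with the same parenchyma libraries. CESA4 and CESA7 each passed the filter of this fit in 7 of 12 libraries, all of them VB libraries. They were thus tested only because they are high in VBs.

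**Figure D2:**
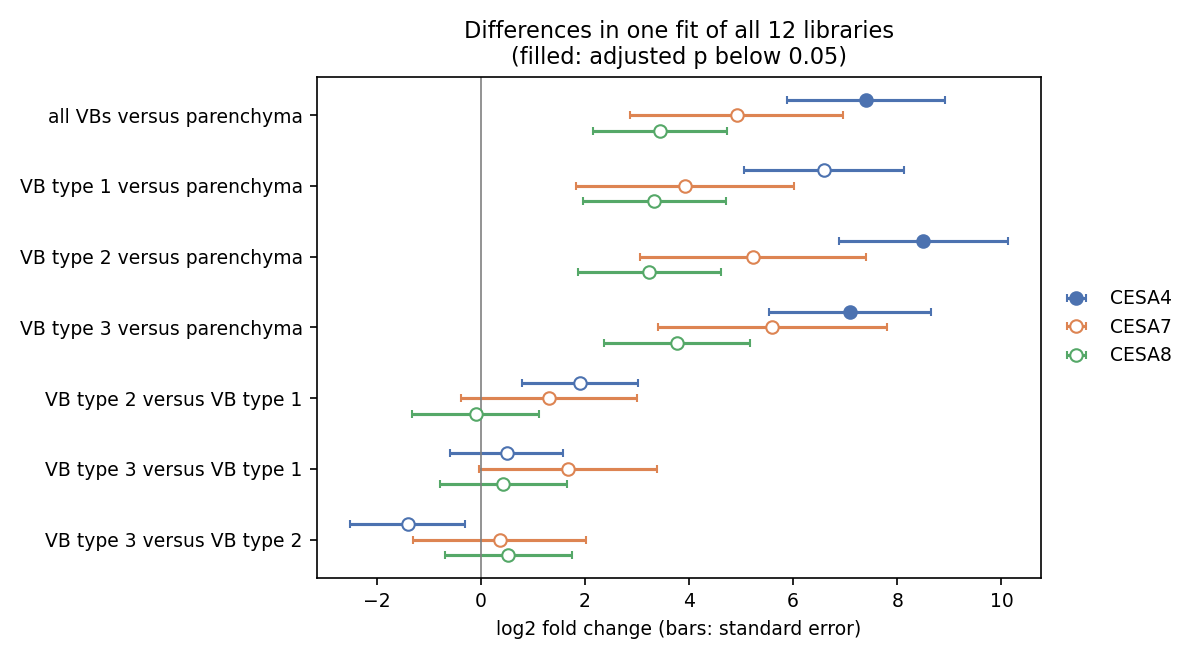
Log2 fold changes (x axis) of CESA4, CESA7 and CESA8 in the fit of all 12 libraries, with bars for standard errors and filled points for an adjusted p below 0.05. CESA4 stood at 7.40 over all VBs and was filled there, in VB type 2 and in VB type 3, and the differences between VB types lay between -1.40 and 1.90 with no filled point.

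The VB types differ in their number of protoxylem cells, and the libraries were compared to find out whether the cellulose synthases differ with it. The order of mean levels was not the same for the 3 genes. CESA4 was highest in VB type 2 (11.6 ± 9.48 CPM, SD, n = 3), followed by VB type 3 (4.37 ± 4.16) and VB type 1 (3.09 ± 2.48). CESA7 was highest in VB type 3 (6.15 ± 7.54 CPM, SD, n = 3), followed by VB type 2 (4.77 ± 5.62) and VB type 1 (1.92 ± 1.74). CESA8 was highest in VB type 3 (9.43 ± 7.86 CPM, SD, n = 3), followed by VB type 1 (7.00 ± 5.16) and VB type 2 (6.56 ± 6.57). No neighbours in these orders differed by more than their spread, and for each gene the libraries of any pair of VB types overlapped.

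The fitted differences between VB types had wide errors. CESA4 was higher in VB type 2 than in VB type 1 by a log2 fold change of 1.93 (SE 0.98, unadjusted p = 0.0866 in edgeR's quasi-likelihood test), and VB type 3 differed from VB type 2 by -1.40 (SE 1.00) and from VB type 1 by 0.48 (SE 1.14). CESA7 differed by 1.34 (SE 1.40) between VB types 2 and 1, by 1.65 (SE 1.74) between VB types 3 and 1 and by 0.37 (SE 1.67) between VB types 3 and 2. CESA8 differed by -0.07 (SE 1.04), 0.41 (SE 1.01) and 0.53 (SE 1.02) in the same comparisons. The lowest adjusted p of these 9 differences was 0.9999. Over all transcripts, the quasi-likelihood test called 0 of 17703, 17448 and 17111 in the same 3 comparisons, where 362, 469 and 417 had an unadjusted p under 0.05. The likelihood ratio test called 19, 24 and 4, and DESeq2 called 16, 21 and 14. Differences of the size of these errors were not detectable with 3 libraries a group.

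The members varied more between VB libraries than the median transcript of like level. The coefficient of variation over the 9 VB libraries was 1.05 for CESA4, 1.20 for CESA7 and 0.768 for CESA8, against medians of 0.639, 0.734 and 0.599 for transcripts within 2-fold of each mean. The VB libraries numbered 1 stood low in CESA8 and XCP1. Their CESA8 levels, 1.08 to 2.63 CPM, were below the 2.90 to 17.5 CPM of the other 6, and their XCP1 levels, 149 to 247 CPM, below the other 587 to 995 CPM. CESA4 did not follow this in VB type 2, where replicate 1 had 8.14 CPM and replicate 3 had 4.34 CPM, and CESA7 did not in VB type 1, where replicate 1 had 1.94 CPM and replicate 2 had 0.169 CPM. Whether a number marks shared plants is not given in the labels.

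Because a subunit ratio within a library does not depend on the scaling between libraries, the proportions of the 3 members were also compared. Of their summed length-scaled level in a VB library, CESA4 made up 13.6% to 72.1%, CESA7 0% to 53.1% and CESA8 21.9% to 75.5%. The proportions therefore ranged widely, and each of the 3 was the most abundant in at least 1 library. CESA4 led in VB type 2, with 72.1%, 48.1% and 46.1% in replicates 1 to 3, and with 13.6% to 35.4% in the other VB libraries. CESA7 was at 1.24% in VB type 1 replicate 2 and at 53.1% in replicate 1 of the same type. By pairs, these were 4 of 325 (1.23%, 95% Clopper-Pearson interval 0.336% to 3.12%) and 43 of 81 (53.1%, 41.7% to 64.3%).

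**Figure D3:**
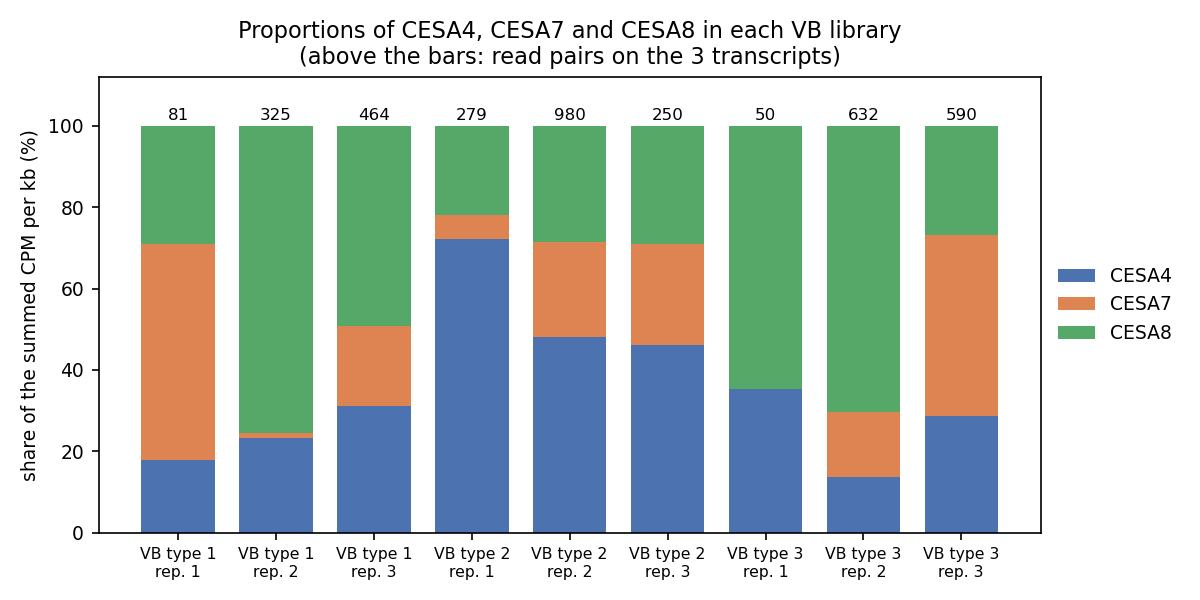
Share (%) of CESA4, CESA7 and CESA8 in their summed CPM per kb in each of the 9 VB libraries, with the number of pairs on the 3 transcripts above each bar. CESA4 made up 46.1% to 72.1% in the libraries of VB type 2 and 13.6% to 35.4% in those of VB types 1 and 3, and CESA7 had 0 of the 50 pairs in VB type 3 replicate 1, which allows a share of pairs of up to 7.11% (95% Clopper-Pearson).

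On a log2 scale with a pseudocount of 0.5 pairs, the ratio of CESA4 to CESA8 was -0.76, -1.78 and -0.75 in VB type 1, 1.62, 0.66 and 0.58 in VB type 2 and -0.94, -2.45 and 0.00 in VB type 3. VB type 2 did not overlap with either of the others. The means were -1.10 ± 0.59, 0.95 ± 0.58 and -1.13 ± 1.24 (SD, n = 3), so that VB type 2 exceeded VB type 1 by 2.05, and VB type 3 minus VB type 2 came to -2.08. Each of these had p = 0.1 in an exact two-sided permutation test, the smallest that 3 against 3 allows, or 0.3 when adjusted over the 3 ratios. The ratios with CESA7 varied more within a type. Over the 9 VB libraries the ratio of CESA4 to CESA8 ranged 16.8-fold, and, without the library that held 0 CESA7 pairs, that of CESA7 to CESA8 ranged 98.4-fold and that of CESA4 to CESA7 48.3-fold. With that library, where the pseudocount sets the ratio, they came to 119-fold and 105-fold. Between VB types, the exact p for the ratios with CESA7 was 0.6 to 0.9.

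Between all VBs and parenchyma, the log2 ratio of CESA4 to CESA7 differed by 2.57 (exact permutation p = 0.0455, 0.136 adjusted over the 3 ratios), with means of 1.39 ± 2.30 (SD, n = 9) and -1.18 ± 0.43 (SD, n = 3). The ratio of CESA4 to CESA8 differed by 2.13 (exact p = 0.1) and that of CESA7 to CESA8 by -0.44 (exact p = 0.827). The parenchyma ratios rest on 6, 39 and 3 pairs of the members per library. After adjustment, no ratio was shown to differ between VBs and parenchyma.

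Across the 9 VB libraries the levels of the 3 members rose and fell together only in part. On log2 CPM, Pearson's r was 0.61 between CESA4 and CESA7, 0.64 between CESA4 and CESA8 and 0.48 between CESA7 and CESA8, with Spearman's rho of 0.68, 0.43 and 0.53. With XCP1 the r was 0.44 for CESA4, 0.61 for CESA7 and 0.75 for CESA8, and XCP1 ranked 237 of 16703 transcripts by likeness to CESA8. These libraries share VB types and, for some, replicate numbers, and the values describe them without a test.

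**Figure D4:**
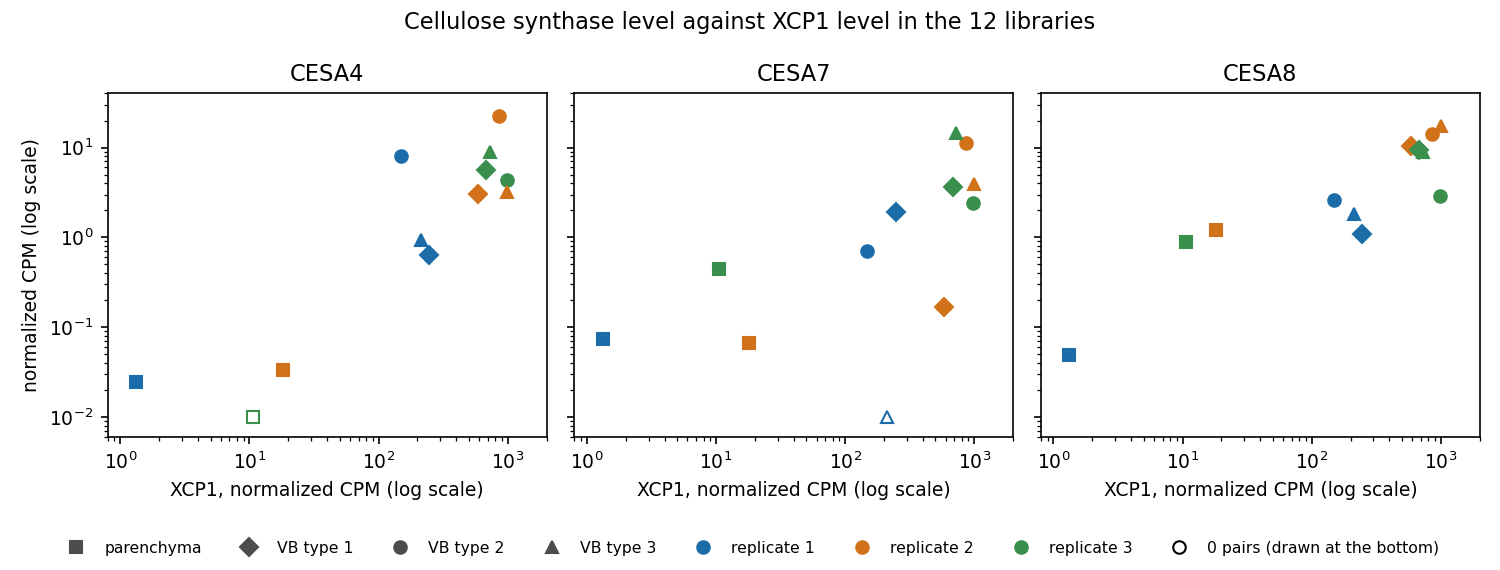
Level of CESA4, CESA7 and CESA8 (normalized CPM, log axis) against the level of XCP1 (normalized CPM, log axis) in the 12 libraries, with shapes for tissues, colours for replicate numbers and open symbols for 0 pairs. The VB libraries numbered 1 had 149 to 247 CPM of XCP1 and CESA8 levels of 1.08 to 2.63 CPM, and parenchyma lay at 18.1 CPM of XCP1 or less.

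The transcripts most like the mean profile of the 3 members over the 9 VB libraries, among those tested, were Bradi2g41370.1 (r = 0.94), Bradi1g45710.1 (0.93), Bradi3g56917.1 (0.93), Bradi3g29100.2 (0.93) and Bradi2g15300.1 (0.93). Over all 12 libraries, only Bradi1g45710.1 and Bradi3g29100.2 kept an r as high, at 0.96 and 0.97, and the others were at 0.49 to 0.70. Bradi1g45710.1 had 0 pairs in parenchyma and 7.80 CPM on average in VBs. The most like CESA4 alone was Bradi1g47590.1 (r = 0.95), the most like CESA7 was Bradi1g07820.2 (0.94) and the most like CESA8 was Bradi2g37798.1 (0.93). Over all 12 libraries their r was 0.68, 0.34 and 0.73. Bradi1g07820.2 averaged 4.25 CPM in VBs and 8.26 CPM in parenchyma. Each r is the highest of 16703 over 9 libraries, and whether it exceeds what such picking gives was not tested. No transcript was among the 5 most like more than 1 of the 3 members.

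Other wall and vascular genes were taken from transcripts that the study annotates, 17 in all, of which 15 passed the filter over all 12 libraries. Of these, 6 were called higher in VBs and 1 lower, beside 1.25% and 3.78% of the 16706 transcripts tested. All 7 belong to the 9 that the study named or listed on these same libraries, so neither their number nor their direction is independent evidence. SUS6, annotated as a sucrose synthase, an enzyme that releases the UDP-glucose from which cellulose is made, had 2 pairs in parenchyma and 2289 in VBs. The pooled ratio was 409 (95% exact interval 113 to 3380, without the spread between libraries). SUS6 was called higher (adjusted p = 0.0303 by edgeR's quasi-likelihood test). CCR1, annotated as cinnamoyl-CoA reductase of lignin synthesis, rose by 2.26 on the log2 scale (SE 0.56, adjusted p = 0.0330). Of the xylan backbone genes by annotation, IRX10 had a log2 fold change of 3.00 (SE 1.09, adjusted p = 0.144), whereas IRX9 fell by 2.03 (SE 0.54, adjusted p = 0.0468). IRX9 was at 73.1 to 86.4 CPM in parenchyma and at 6.70 to 53.2 CPM in VBs. FLA11a (Bradi2g46120.1), another of the 9, was also lower in VBs, with means of 4.34 CPM there and 16.4 CPM in parenchyma. Its log2 fold change was -2.32 (SE 1.35, adjusted p = 0.395 by edgeR's quasi-likelihood test).

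The other 8 transcripts were annotated by the study outside these libraries, in its microarray and co-expression tables. Of those 8, 6 were tested, with log2 fold changes of median -0.31 and adjusted p of 0.152 to 0.941. CESA5 (Bradi1g02510.1), a cellulose synthase named after a rice gene, had 279 ± 111 CPM in parenchyma (SD, n = 3) and 255 ± 192 CPM in VBs (SD, n = 9), with a log2 fold change of -0.20 (SE 0.53). Per kb of transcript its mean level in VBs was 54.0 CPM, which was 30.1, 46.4 and 26.5 times that of CESA4, CESA7 and CESA8. CSLC1, CSLA1 and CSLD3, of cellulose synthase-like families, had log2 fold changes of -0.42, -0.18 and -1.07, none of them called. FLA11b (Bradi2g16570.1) was at 34.1 CPM on average in parenchyma and at 17.6 CPM in VBs. Its log2 fold change of -0.99 (SE 0.37) had the lowest adjusted p of the 6, 0.152 by edgeR's quasi-likelihood test.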

How the data were processed

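The authors used Trimmomatic for trimming and sortMeRNA against ribosomal reads, placed what remained with Bowtie 2 on the Brachypodium transcriptome and deposited raw counts per transcript, both of single reads and of pairs with each read placed on that transcript alone, without normalization. Pairs shared by near-identical transcripts were lost. The labels call the libraries not stranded and the study calls them stranded, so that reads of an overlapping antisense gene may be included. The labels give 19 days of age, where the study gives a day more, and the deposited record mentions 1 biological replicate where the study names 3 per tissue, which were treated as replicates. Nothing in the labels says that they came from separate plants, so p-values measure the spread between these libraries.

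Pair counts entered edgeR 4.0.16, DESeq2 1.42.0 and limma 3.58.1 (R 4.3.3). Exact tests used scipy 1.17.1 in Python 3.11.15, and matplotlib 3.10.9 drew the figures. Transcripts with at least 1 CPM, before TMM scaling, in 3 of 6 libraries, or 6 of 12, were kept and normalized by TMM. The main test was the quasi-likelihood F-test of edgeR. Its p-values were adjusted after Benjamini and Hochberg over all transcripts kept, with a threshold of 0.05. A pair of groups was fitted with its 6 libraries, and all VBs, as the average of their 3 types against parenchyma, with 12. Permutation tests of single genes and correlations used log2 CPM (prior count 2). Permutation tests of the ratios used log2 ratios of pair counts with a pseudocount of 0.5 pairs. The alternatives were the likelihood ratio test that the study names, DESeq2, limma-voom with quality weights, RLE size factors, library totals, other filters, a replicate block, single-read counts, removal of Bradi2g12067.1, one fit of all libraries and each library left out. After seeing the data, further alternatives were added: a likelihood ratio test blocked by replicate number, pooled ratios that leave out each parenchyma library, and ratio ranges without the library with 0 CESA7 pairs.

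The 3 genes and all lists were chosen with earlier results of these data known. The named genes are the 3 members, the 5 transcripts most like them by Pearson's r over the 9 VB libraries, and the genes that the study annotates. The lists of wall genes planned from annotation text were replaced by the study's own annotations, because the table of gene names at hand pairs none of the identifiers with a description, and no sequence is shown. Mutant, microarray and hormone data of the study were not analysed here, and 0 value columns lacked a condition.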

Additional observations from a re-analysis of the deposited data

Results flagged for a closer look

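The CESA4 level of VB type 2 replicate 2, 22.3 CPM, stood apart from the other 8 VB libraries, which reached 8.99 CPM at most. Its gap to the nearest library was 0.615 of the whole range of the 9, above Dixon's 95% critical value for 9 values. Chance flags about 1 in 20 groups, and 6 sets of values were checked, the levels of the 3 genes and their 3 ratios. CESA7 in the same library, at 11.2 CPM, and CESA8, at 14.2 CPM, were each the second highest of the 9.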

How the results depend on the processing

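The higher CESA4 level over all VBs stayed on its side of the threshold under 9 of the alternatives chosen at first and lost the call under limma-voom with quality weights (log2 fold change 5.58, adjusted p = 0.157). With each library left out it ranged from 7.05 to 7.62, with adjusted p of 0.0108 to 0.0535, and was called in 10 of 12. CESA7 and CESA8 were called over all VBs by DESeq2 (4.96 and 3.45, adjusted p of 0.00934 and 0.0108). CESA8 was also called with the replicate block (3.77, adjusted p = 0.0492) and with the likelihood ratio test with the block (3.79, adjusted p = 0.00239). In VB type 2, CESA4 was called by the likelihood ratio test (8.52), DESeq2 (8.32), without a filter (8.50), in one fit of all libraries (8.50) and in the likelihood ratio test with the block (8.69), and CESA7 by DESeq2 (5.32). The filter on a majority of libraries, and leaving out any VB type 2 library, left CESA4 and CESA7 untested there.

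Over all VBs, the count of transcripts called was 839 in the quasi-likelihood test, 1676 in the likelihood ratio test, 1829 in DESeq2 and 145 with library totals, where the median transcript stood at a log2 fold change of 0.18 in place of 0.01. Replicate numbers were not taken to pair the libraries, because the correlation of deviations between same-numbered libraries was -0.05 to 0.07 between VBs and parenchyma. Between VB types it was -0.05 to 0.02 for number 2. For numbers 1 and 3 it was 0.22 to 0.47, each time above the correlation with any other number. VB libraries of these numbers varied together in part, which the main tests and the permutation tests do not take into account. With the block, 777 transcripts were called.

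Differences between VB types changed sign readily, and the cause was not tested. CESA8 in VB type 2 against type 1 reversed with the block (0.048, and 0.047 in the likelihood ratio test with the block) and with single-read counts (0.12), CESA8 in VB type 3 against type 1 under limma-voom (-0.028), and CESA7 in VB type 3 against type 2 under limma-voom (-1.61), library totals (-0.0013), the block (-1.12) and the likelihood ratio test with the block (-1.19). With single libraries left out, the ranges that held a reversal were, for type 2 against type 1, -1.33 to 0.34 (CESA8) and -0.27 to 2.21 (CESA7), for type 3 against type 1, -0.40 to 0.90 (CESA8), -0.61 to 1.24 (CESA4) and -0.010 to 2.54 (CESA7), and for type 3 against type 2, -1.29 to 1.93 (CESA7) and -0.28 to 1.74 (CESA8).

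Between all VBs and parenchyma, single-read counts brought the log2 ratios of CESA4 to CESA8 (2.88) and of CESA4 to CESA7 (3.26) under an adjusted p of 0.05, both at 0.0409, and a pseudocount of 2 pairs took them to 1.28 and 1.71, both with an adjusted p of 0.314. With single libraries left out, the ratio of CESA4 to CESA8 ranged from 1.10 to 3.04 and was not called, that of CESA4 to CESA7 ranged from 2.10 to 2.94, with an adjusted p of 0.0364 at the upper end (without VB type 1 replicate 1), and that of CESA7 to CESA8 from -1.69 to 0.49. Between VB types, the ratio of CESA4 to CESA7 reversed with single-read counts (0.31, type 3 against type 2) and with a pseudocount of 2 pairs (-0.15, type 3 against type 1), as did that of CESA7 to CESA8 (0.12, type 3 against type 1). Leaving out single libraries gave, for CESA4 to CESA7, -0.53 to 2.26 (type 2 against 1), -1.50 to 1.87 (3 against 1) and -2.26 to 0.65 (3 against 2), for CESA7 to CESA8, -0.56 to 2.75, -2.25 to 1.37 and -3.29 to 0.088, and for CESA4 to CESA8, -0.60 to 0.63 (3 against 1). The ratio of CESA4 to CESA8 in VB type 2 against type 1 stayed at 1.70 to 2.24 and in type 3 against type 2 at -2.64 to -1.42. Without a filter, CESA4 was not called in VB types 1 and 3. Parenchyma replicate 3, where 3 pairs are worth 1.32 CPM, and the 2 to 40 pairs of each gene in parenchyma limit every fold change.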

Other observations

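LAC17 (Bradi2g54690.1), annotated as a laccase, an enzyme family that polymerizes lignin in the secondary wall, was too low to be tested. It had 149 pairs (7.25 CPM) in VB type 2 replicate 2, the library with the highest CESA4 level, 11 and 10 pairs in VB type 3 replicates 2 and 3, 3 pairs in VB type 1 replicate 3 and 0 pairs in the other VB libraries and in parenchyma. Over the 9 VB libraries its Spearman's rho was 0.89 with CESA7, 0.69 with CESA4 and 0.68 with CESA8, a description in which 5 libraries share the value of 0 pairs.

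SUS6 did not follow the cellulose synthases in every VB. It had 0 pairs in VB type 3 replicate 2, the library with the highest CESA8 level (17.5 CPM), and 3.25 to 29.1 CPM in the other 8 VB libraries. SUS3, another sucrose synthase by annotation, was at 9.96 ± 8.22 CPM in VBs (SD, n = 9) and 10.6 ± 1.71 CPM in parenchyma (SD, n = 3), and its r with CESA8 over the 9 VB libraries was 0.71.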
